A study of Mus musculus with 6 samples.

Results

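Fragments of transfer RNAs (tRNAs) other than tRNA-Glu, tRNA-Asp and tRNA-Gly were followed in round spermatids, the haploid germ cells that form after meiosis, of Miwi knockout (KO) and wild-type (WT) mice. The members were all cytosolic tRNA reference sequences of the deposited small RNA table whose name gives another isotype, that is, another amino acid. They were 225 of the 249 cytosolic tRNA entries and of the 45932 entries of the table, and they covered 19 isotypes and 45 anticodons. The KO group held 3 libraries from mice with a global inactivation of Miwi, in a line re-established from frozen sperm, and the WT group held 3 libraries from mice with intact Miwi. All donors were C57BL/6 males at postnatal day 21, and no treatment is named. The series' design text states that spermatids of these KO mice develop up to step 4, and no step is given for the WT cells. Within each genotype the libraries carry the numbers 1 to 3, and nothing in the labels ties a number to an animal of its own. The p-values thus reflect the spread among libraries, which may be only technical.

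A tRNA reads a codon of the messenger RNA with its anticodon and delivers the matching amino acid to the ribosome. Nucleases can cut mature tRNAs, often in the anticodon loop, and the resulting fragments are sequenced among small RNAs. Fragments of this kind are known as abundant RNAs of maturing mouse sperm, where those of tRNA-Glu, tRNA-Gly and tRNA-Val have been studied most. MIWI (PIWIL1) is a PIWI protein of spermatids that binds pachytene piRNAs. The deposited table counts reads per reference tRNA. It holds neither read lengths nor the part of the tRNA that a read covers, so fragments and longer tRNA pieces were not told apart.

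Of the tested members, those with a whole sequence in the gene sequences used here (GENCODE and RefSeq annotation of build GRCm38) were tRNA-Ser-TGA chr13.trna112 and tRNA-Arg-TCT chr3.trna628. They are shown to give the form of the reference sequences, with the anticodon arm between the D arm and the T arm of the folded tRNA, and the anticodon (positions 34 to 36 of the printed gene sequence) is in capitals. The first lies at chr13:23518146-23518227 on the plus strand and is the gene n-TStga1, and the second lies at chr3:122292948-122293032 on the minus strand, is the gene n-TRtct2 and overlaps an exon of Gm17494 on the same strand.
tRNA-Ser-TGA chr13.trna112: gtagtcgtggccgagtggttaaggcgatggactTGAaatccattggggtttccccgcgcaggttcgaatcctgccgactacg
tRNA-Arg-TCT chr3.trna628: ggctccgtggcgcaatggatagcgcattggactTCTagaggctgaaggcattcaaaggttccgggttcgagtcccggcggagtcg

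The libraries differed in depth and in composition. The KO libraries held between 747443 and 1335013 counts and the WT libraries between 3114845 and 5037232. miRNA counts made up between 18.1% and 19.6% of the table in KO and between 4.88% and 5.96% in WT. piRNA counts were between 40540 and 44554 per 10000 miRNA counts in KO, against between 156480 and 192267 in WT. Levels are therefore given per 10000 miRNA counts of the same library, and miRNA totals were between 146487 and 243655 in KO, against between 179761 and 246030 in WT. On this scale most RNAs of the table were lower in KO, and the median log2 change of the tested RNAs was -2.30. In both genotypes the third library (replicate 3) had high tRNA, mitochondrial tRNA and snoRNA counts, and results that rest on them are given with and without them. Miwi messenger RNA was not measured, and the genotypes rest on the labels. Summed miRNAs known from post-meiotic germ cells (14 of 14 with counts) were between 3401 and 3856 per 10000 miRNA counts in KO, against between 3085 and 3225 in WT. Those of smooth muscle and mesenchymal cells (10 of 10 with counts) were between 190 and 241 in KO, against between 250.02 and 345 in WT, those of Sertoli cells (4 of 4) between 32.3 and 36.4 in KO, against between 40.2 and 44.6 in WT, and those of red cells (4 of 6, with 2 at 0) between 0.383 and 0.546 in KO, against between 0.890 and 1.28 in WT. The endothelial, leukocyte and spermatogonial lists overlapped between the genotypes. The part of these cells in the tRNA results was not tested, and in such samples fewer cells of a type and less RNA per cell cannot be told apart.

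Summed over all members, tRNA fragments of the other isotypes were at 69.3, 74.7 and 121 counts per 10000 miRNA counts in KO replicates 1 to 3, against 109, 137 and 177 in WT replicates 1 to 3. The means were 88.4 ± 28.5 in KO, against 141 ± 34.4 in WT (SD, n = 3 each), 1.59-fold lower in KO. KO replicate 3 lay above WT replicate 1, so the genotypes overlapped. tRNA-Met made up 49.1% ± 1.62 of the member counts in KO, against 34.5% ± 6.90 in WT. Without it the sum was at 36.5, 36.9 and 61.2 in KO and at 69.4, 81.4 and 129 in WT, with no overlap and a mean 2.08-fold lower in KO. Because the members were chosen with results known, these sums were not tested.

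tRNA-Glu, tRNA-Asp and tRNA-Gly, the isotypes left out by the rule, were at 54.6, 48.1 and 82.1 counts per 10000 miRNA counts in KO and at 495, 494 and 832 in WT, 9.85-fold lower in KO. The other isotypes thus made up 55.9%, 60.8% and 59.6% of all cytosolic tRNA counts in the KO libraries, against 18.0%, 21.7% and 17.6% in the WT libraries. Their ratio to the summed tRNA-Glu, tRNA-Asp and tRNA-Gly counts was 1.27, 1.55 and 1.48 in KO, against 0.220, 0.277 and 0.213 in WT, a log2 difference of 2.60. This ratio does not depend on the scaling of the libraries. It was close to the same in replicate 3 as in the other libraries of each genotype. The isotypes were grouped with results known, so the gap between the genotypes partly follows from that choice and was not tested. Mitochondrial tRNAs were at 10.5, 9.90 and 42.8 in KO and at 30.3, 32.1 and 104 in WT, and snoRNA fragments at 93.7, 67.7 and 309 in KO and at 329, 218 and 883 in WT. Both classes overlapped between the genotypes, and in both the replicate 3 library was the highest of its genotype.

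**Figure D1:**
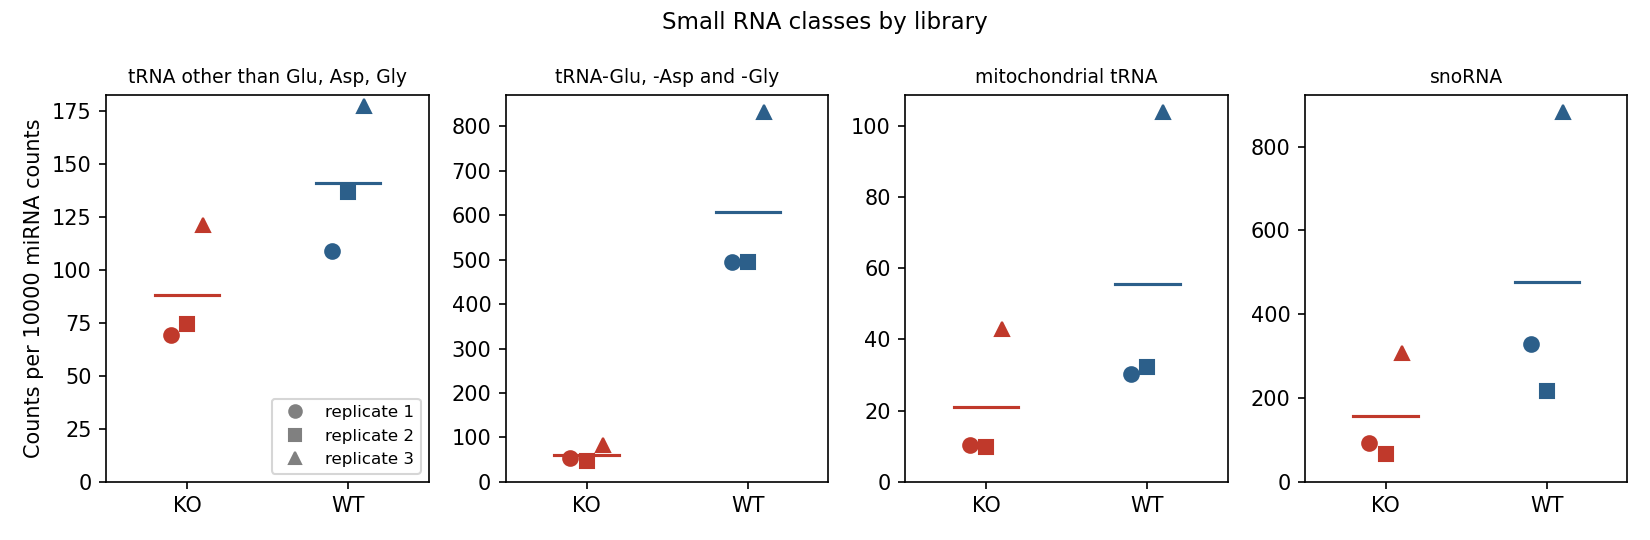
Counts per 10000 miRNA counts of 4 classes of small RNA in each library, KO left of WT, with symbols for the replicate number and bars for the means of 3 libraries. The other isotypes averaged 88.4 in KO, against 141 in WT, tRNA-Glu, tRNA-Asp and tRNA-Gly 61.6 in KO, against 607 in WT, and replicate 3 was the highest library of each genotype in every panel.

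Of the 19 isotypes, 12 had enough counts for a test in edgeR (about 10 counts, scaled to the miRNA totals, in at least 3 libraries). Scaled to miRNA totals, 9 of these 12 were lower in KO at an adjusted p of 0.05, while all 12 were higher in KO with TMM factors of the whole table. None was higher in KO by edgeR with miRNA totals, where 10 of the 12 had an unadjusted p under 0.05, all of them lower. Over all 25992 tested RNAs, 22209 had such a p in either direction. The DESeq2 test called 8 isotypes lower and none higher. With the same scaling 79.4% of all 25992 tested RNAs were called lower and 5.54% higher, so 9 of 12 is close to that background. The background is mostly piRNAs, with 25421 of the 25992 RNAs, of which 20421 were called lower. Among the other classes, 48 of 327 miRNAs, 43 of 115 endo-siRNAs, 12 of 19 snRNAs, 8 of 11 mitochondrial tRNAs and 79 of 81 snoRNAs were lower. The median log2 change was -0.94 over the 12 isotypes, against -2.30 over all RNAs, -0.12 over 327 miRNAs, -1.25 over 11 mitochondrial tRNAs and -1.80 over 81 snoRNAs. By level alone, 8 of the 19 isotypes were lower in every KO library than in any WT library, and 14 were when KO replicate 3 was left out. For comparison, 79.3% of 26032 tested RNAs (with tRNA rows per entry) were lower without overlap over all libraries. The 19 isotypes include those too scarce for a test, so the shares are not strictly alike. With fewer KO libraries a lack of overlap is easier to reach, and no such share is given for the 14.

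**Figure D2:**
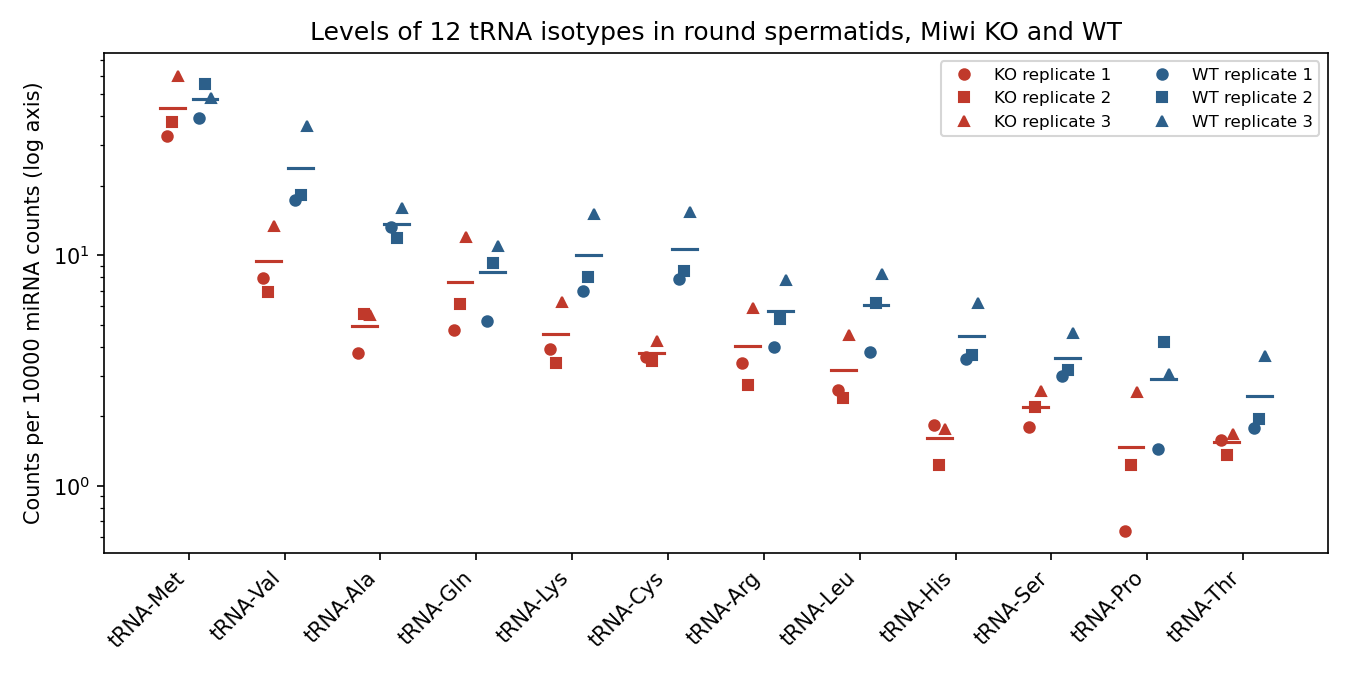
Counts per 10000 miRNA counts (log axis) of the 12 tested isotypes in each library, KO left of WT for each isotype, with bars for the means of 3 libraries. tRNA-Cys averaged 3.78 in KO, against 10.6 in WT without overlap, while tRNA-Met averaged 43.5 in KO, against 47.5 in WT, and overlapped.

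The changes past the threshold were of unequal size, and tRNA-Cys, tRNA-Ala, tRNA-His and tRNA-Val were between 2.55-fold and 2.80-fold lower in KO. tRNA-Cys, which delivers cysteine, was at 3.62, 3.48 and 4.23 counts per 10000 miRNA counts in KO and at 7.84, 8.52 and 15.4 in WT. Its KO libraries lay close together and below every WT library, and its log2 change was -1.49 ± 0.22 (SE, edgeR adjusted p = 7.14e-08). tRNA-Ala was at 3.75, 5.53 and 5.50 in KO and at 13.2, 11.8 and 16.1 in WT, a log2 change of -1.48 ± 0.20 (edgeR adjusted p = 9.42e-09). Here too no library overlapped, but 1 reference sequence, chr4.trna622, carried most of the difference. Without that sequence, an alternative added after seeing the data, tRNA-Ala averaged 4.90 ± 1.03 in KO, against 7.48 ± 1.66 in WT (SD, n = 3 each), 1.53-fold lower in KO and still without overlap. tRNA-His was at 1.83, 1.23 and 1.77 in KO and at 3.56, 3.67 and 6.18 in WT, a log2 change of -1.46 ± 0.26 (edgeR adjusted p = 2.51e-06). The entry tRNA-His-GTG chr2.trna1431 held 94.1% of the tRNA-His counts. tRNA-Val, the most counted of the isotypes that fell, was at 7.97, 6.89 and 13.3 in KO and at 17.2, 18.2 and 36.3 in WT. All KO libraries were below all WT libraries, with a log2 change of -1.34 ± 0.23 (edgeR adjusted p = 7.92e-07).

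tRNA-Lys, tRNA-Leu, tRNA-Pro, tRNA-Ser and tRNA-Thr fell less. tRNA-Lys was at 3.92, 3.41 and 6.28 counts per 10000 miRNA counts in KO and at 6.95, 8.01 and 14.998 in WT, a log2 change of -1.13 ± 0.24 (edgeR adjusted p = 3.05e-05) without overlap. tRNA-Leu was at 2.60, 2.39 and 4.51 in KO and at 3.78, 6.17 and 8.29 in WT, a log2 change of -0.93 ± 0.25 (edgeR adjusted p = 0.000629). KO replicate 3 of tRNA-Leu was higher than WT replicate 1, so its genotypes overlapped. The next isotype, tRNA-Pro, was at 0.639, 1.23 and 2.54 in KO and at 1.45, 4.18 and 3.05 in WT, and it overlapped in the same way. Its log2 change was -0.96 ± 0.34 (edgeR adjusted p = 0.00822), was -1.70 without KO replicate 3, and missed the threshold when KO replicate 1 (-0.57, adjusted p = 0.125) or WT replicate 2 (-0.62, adjusted p = 0.0713) was left out. Counts of tRNA-Pro were few, 95 in the KO libraries together and 183 in the WT libraries.

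tRNA-Ser, one of the tRNA types with a long variable arm, was at 1.79, 2.18 and 2.59 counts per 10000 miRNA counts in KO and at 3.00, 3.16 and 4.59 in WT. It did not overlap and had a log2 change of -0.72 ± 0.25 (edgeR adjusted p = 0.00823), which missed the threshold without KO replicate 1 (adjusted p = 0.0591) or WT replicate 3 (adjusted p = 0.0551). tRNA-Thr was at 1.58, 1.37 and 1.68 in KO and at 1.78, 1.94 and 3.66 in WT, a log2 change of -0.68 ± 0.29 (edgeR adjusted p = 0.0274). In WT, replicate 3 was the highest library, and without it the log2 change of tRNA-Thr was -0.25 (adjusted p = 0.414). The tRNA-Thr call was also lost when either KO replicate 1 (adjusted p = 0.0575) or KO replicate 2 (adjusted p = 0.0781) was left out, and in the DESeq2 test (adjusted p = 0.0699). Other scalings lost it as well, with TMM factors of the miRNAs alone at -0.56 (adjusted p = 0.0685) and with those of all RNAs other than piRNAs at -0.43 (adjusted p = 0.120).

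tRNA-Met, tRNA-Gln and tRNA-Arg did not pass the threshold. tRNA-Met, which serves both the start codon and internal methionine codons, had 770, 553 and 1460 counts in KO, against 708, 1084 and 1175 in WT. Per 10000 miRNA counts this was 32.8, 37.8 and 59.9 in KO, against 39.4, 55.3 and 47.8 in WT, and the highest of the 6 libraries was KO replicate 3. The log2 change was -0.13 ± 0.19 (edgeR adjusted p = 0.530). tRNA-Gln was at 4.73, 6.14 and 11.98 in KO and at 5.17, 9.23 and 10.9 in WT, with replicate 3 highest in both genotypes and a log2 change of -0.15 ± 0.24 (edgeR adjusted p = 0.576). tRNA-Arg was at 3.41, 2.73 and 5.91 in KO and at 4.01, 5.31 and 7.80 in WT, with 1 KO library above WT replicates 1 and 2 and a log2 change of -0.49 ± 0.24 (edgeR adjusted p = 0.0545).

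How little tRNA-Met and tRNA-Gln differed rested on KO replicate 3. Without that library tRNA-Met had a log2 change of -0.43 (adjusted p = 0.0356), tRNA-Gln of -0.66 (adjusted p = 0.0176) and tRNA-Arg of -0.89 (adjusted p = 0.00290), and all 12 isotypes were called lower. With both replicate 3 libraries left out the values were -0.43 for tRNA-Met (adjusted p = 0.00854), -0.43 for tRNA-Gln (adjusted p = 0.0404) and -0.58 for tRNA-Arg (adjusted p = 0.0149), and tRNA-Thr was the isotype of the 12 that was not called (adjusted p = 0.353). tRNA-Arg also passed without WT replicate 1 (adjusted p = 0.0113) and without WT replicate 2 (adjusted p = 0.0303). No share of all RNAs is given for these sets of libraries.

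The direction of every one of these changes depended on the scale. Under TMM factors of the whole table, which take the typical RNA as unchanged and moved the median log2 change of all tested RNAs by 2.03, all 12 isotypes were higher in KO past the threshold, where 33.3% of all RNAs were. On that scale the log2 changes lay between 0.56 for tRNA-Ala and 1.91 for tRNA-Gln and for tRNA-Met. Relative to the shift of the median, each isotype had the same sign and nearly the same change as with miRNA scaling. Of the whole table the members were 0.126%, 0.146% and 0.221% in KO, against 0.0628%, 0.0815% and 0.0865% in WT.

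**Figure D3:**
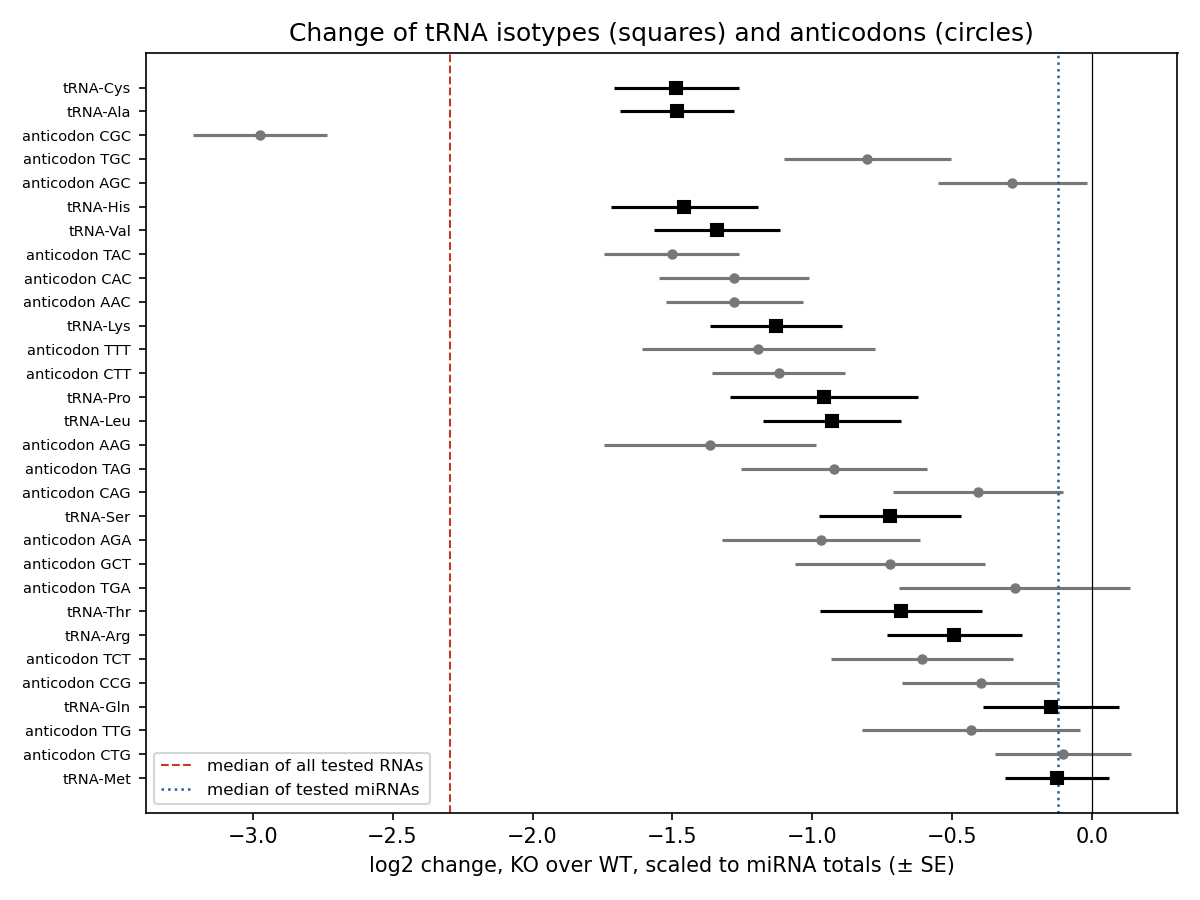
Log2 change (KO over WT, scaled to miRNA totals, bars ± SE of the edgeR fit) of the 12 tested isotypes (squares) and, below each isotype that has several tested anticodons, of those anticodons (circles). The isotypes lay between -1.49 for tRNA-Cys and -0.13 for tRNA-Met, all to the right of the dashed median of all tested RNAs at -2.30, and the tRNA-Ala anticodons spread from -2.97 to -0.28. Under whole-table TMM factors the changes of all 12 isotypes were positive.

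Ratios between isotypes of the same library do not depend on the scaling. The ratio of tRNA-Cys to tRNA-Met counts was 0.110, 0.0922 and 0.0705 in KO, against 0.199, 0.154 and 0.322 in WT, 2.47-fold lower in KO without overlap. That of tRNA-Val to tRNA-Met was 0.243, 0.183 and 0.223 in KO, against 0.438, 0.329 and 0.761 in WT, 2.36-fold lower, and that of tRNA-Lys to tRNA-Met was 2.02-fold lower, also without overlap. The ratio of tRNA-Gln to tRNA-Met was 0.144, 0.163 and 0.200 in KO, against 0.131, 0.167 and 0.229 in WT, and it overlapped. tRNA-Met and tRNA-Gln were known as little changed before these ratios were formed. The ratios therefore describe that choice and were not tested. In the plot of isotype changes tRNA-Met and tRNA-Gln lie together, to the right of tRNA-Cys, tRNA-His and tRNA-Val.

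By anticodon, 15 of 23 tested sums were lower in KO and none was higher by edgeR, where 79.3% of all RNAs were lower and 5.53% higher. The share of anticodons called lower was thus below that background, which is mostly piRNAs. Under whole-table TMM factors 21 of the 23 were higher and 1 was lower, where 33.3% of all RNAs were higher and 40.8% lower. With miRNA totals none of the 23 had an unadjusted p under 0.05 in the upward direction, the DESeq2 test called 12 lower and none higher, and the median log2 change of the 23 was -0.92. Within tRNA-Ala the anticodons, which read different alanine codons, had unlike changes. tRNA-Ala-CGC was at 0.895, 1.16 and 1.11 counts per 10000 miRNA counts in KO and at 8.18, 7.35 and 9.19 in WT, a log2 change of -2.97 ± 0.24 (edgeR adjusted p = 5.11e-15). It remained lower in KO with TMM factors of the whole table, at -0.95, the only one of the 23 anticodons to do so past the threshold. tRNA-Ala-TGC was at 1.24, 1.16 and 2.09 in KO and at 2.78, 1.53 and 3.62 in WT, a log2 change of -0.80 ± 0.30 (edgeR adjusted p = 0.0124) that was lost without KO replicate 1, KO replicate 2 or WT replicate 3 (adjusted p = 0.0709, 0.0590 and 0.123). tRNA-Ala-AGC was at 1.62, 3.21 and 2.30 in KO and at 2.23, 2.96 and 3.25 in WT, with overlap and a log2 change of -0.28 ± 0.27 (edgeR adjusted p = 0.315). The ratio of tRNA-Ala-CGC to tRNA-Ala-AGC counts was 0.553, 0.362 and 0.482 in KO, against 3.68, 2.48 and 2.83 in WT, without overlap on any scale (exact permutation p = 0.1, the smallest possible with n = 3 each). The entry chr4.trna622 carried most of this gap too. Without it, an alternative added after seeing the data, the ratio was 0.526, 0.362 and 0.464 in KO, against 0.925, 0.534 and 0.750 in WT, 1.63-fold lower in KO, and the highest KO library lay just under the lowest WT library (exact permutation p = 0.1, n = 3 each). The counts left still include those of tRNA-Ala-CGC chr2.trna263, 9 in KO and 61 in WT.

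The 3 tested tRNA-Val anticodons were between 2.43-fold and 2.84-fold lower in KO. tRNA-Val-TAC was at 1.96, 2.12 and 2.79 counts per 10000 miRNA counts in KO and at 4.51, 6.02 and 8.94 in WT, a log2 change of -1.50 ± 0.24. tRNA-Val-CAC changed by -1.28 ± 0.27 and tRNA-Val-AAC by -1.28 ± 0.25, and none of the 3 overlapped (edgeR adjusted p of at most 2.98e-05). In tRNA-Lys, the CTT anticodon changed by -1.12 ± 0.24 and the TTT anticodon by -1.19 ± 0.42. The TTT value rested on WT replicate 3, at 2.36 per 10000 miRNA counts beside 1.00 and 0.459 in the other WT libraries and 0.511, 0.478 and 0.698 in KO, and was -0.33 without it (adjusted p = 0.485) and -0.53 without both replicate 3 libraries (adjusted p = 0.306). tRNA-Cys-GCA, tRNA-His-GTG and tRNA-Met-CAT are the tested anticodons of their isotypes and had the values given for these.

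The tRNA-Leu and tRNA-Ser anticodons, which belong to the tRNAs with a long variable arm, had log2 changes between -1.37 and -0.28. tRNA-Leu-AAG was at 0.554, 0.410 and 0.985 counts per 10000 miRNA counts in KO and at 0.779, 1.58 and 2.76 in WT, a log2 change of -1.37 ± 0.38 (edgeR adjusted p = 0.00105). tRNA-Leu-TAG changed by -0.92 ± 0.33 (adjusted p = 0.0101), by -1.58 without KO replicate 3, and missed the threshold without KO replicate 1, KO replicate 2 or WT replicate 3 (adjusted p = 0.0923, 0.0625 and 0.0995). tRNA-Leu-CAG had a log2 change of -0.41 ± 0.30 (adjusted p = 0.205), with libraries between 1.11 and 1.44 in KO, against between 1.22 and 1.94 in WT. tRNA-Ser-AGA was lower in each KO library, at 0.767, 0.546 and 0.616 in KO and at 1.39, 1.02 and 1.42 in WT, with a log2 change of -0.97 ± 0.35 (edgeR adjusted p = 0.0111), and it missed the threshold without both replicate 3 libraries (-0.82, adjusted p = 0.0625). tRNA-Ser-GCT had -0.72 ± 0.34 (adjusted p = 0.0468), a call that was lost with adjusted p of 0.153 without KO replicate 1, 0.140 without KO replicate 2, 0.0636 without WT replicate 2 and 0.284 without WT replicate 3. It was lost too without both replicate 3 libraries (adjusted p = 0.0903) and in the DESeq2 test (adjusted p = 0.108). tRNA-Ser-TGA, the anticodon of the first sequence above, had -0.28 ± 0.41 (adjusted p = 0.533) and overlapped.

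Both tested tRNA-Gln anticodons and both tested tRNA-Arg anticodons stayed short of the threshold. tRNA-Gln-CTG had a log2 change of -0.10 ± 0.24 (edgeR adjusted p = 0.689), and tRNA-Gln-TTG of -0.43 ± 0.39 (adjusted p = 0.296). Without KO replicate 3 they passed, at -0.59 (adjusted p = 0.0320) and -1.20 (adjusted p = 0.0175). tRNA-Arg-CCG had -0.40 ± 0.28 (adjusted p = 0.183), and passed without KO replicate 3 (-0.84, adjusted p = 0.0172) or WT replicate 1 (-0.67, adjusted p = 0.0269). tRNA-Arg-TCT, the anticodon of the second sequence above, was at 1.24, 0.478 and 1.27 in KO and at 1.56, 1.63 and 1.59 in WT. Its WT libraries lay close together and above each KO library, while its log2 change of -0.61 ± 0.32 did not pass (adjusted p = 0.0785). tRNA-Thr-TGT changed by -0.62 ± 0.29 (adjusted p = 0.0413) and tRNA-Pro-TGG was 2.03-fold lower (adjusted p = 0.0153). The tRNA-Thr-TGT call was lost when any library other than WT replicate 1 or 2 was left out (adjusted p = 0.0782, 0.106 and 0.0571 without KO replicates 1, 2 and 3, and 0.414 without WT replicate 3), without both replicate 3 libraries (-0.32, adjusted p = 0.353) and in the DESeq2 test (adjusted p = 0.0919). The tRNA-Pro-TGG call was lost without KO replicate 1 (adjusted p = 0.179), KO replicate 2 (0.0559) or WT replicate 2 (0.0770) and in the DESeq2 test (adjusted p = 0.0565), and its log2 change was -1.88 without KO replicate 3.

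At the level of single reference sequences, 159 of the 225 entries had any count and 66 were at 0 in every library. The 10 most counted entries held 67.0% of the 14666 member counts, and 37 entries passed the filter on low counts. Of these 37, 19 were lower in KO and none was higher by edgeR, where 79.3% of all RNAs were lower and 5.53% higher. Without overlap 12 were lower, and both shares were below the background, which is mostly piRNAs. Among the 19 and the 12, tRNA-Ala-CGC chr4.trna622 and chr2.trna263 and tRNA-Ser-AGA chr13.trna992 passed the filter through the WT libraries alone. For these entries only a call lower in KO was open. Under whole-table TMM factors 26 of the tested entries were higher and 1 was lower, where 33.3% of all RNAs were higher and 40.8% lower. With miRNA totals no entry had an unadjusted p under 0.05 in the upward direction, and the DESeq2 test called 15 lower and none higher. The median log2 change was -0.91 over the 37 entries, against -3.003 over the 18 tested entries of tRNA-Glu, tRNA-Asp and tRNA-Gly. Entries of 1 anticodon can have near-identical sequences, so how their shared reads were divided is uncertain.

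**Figure D4:**
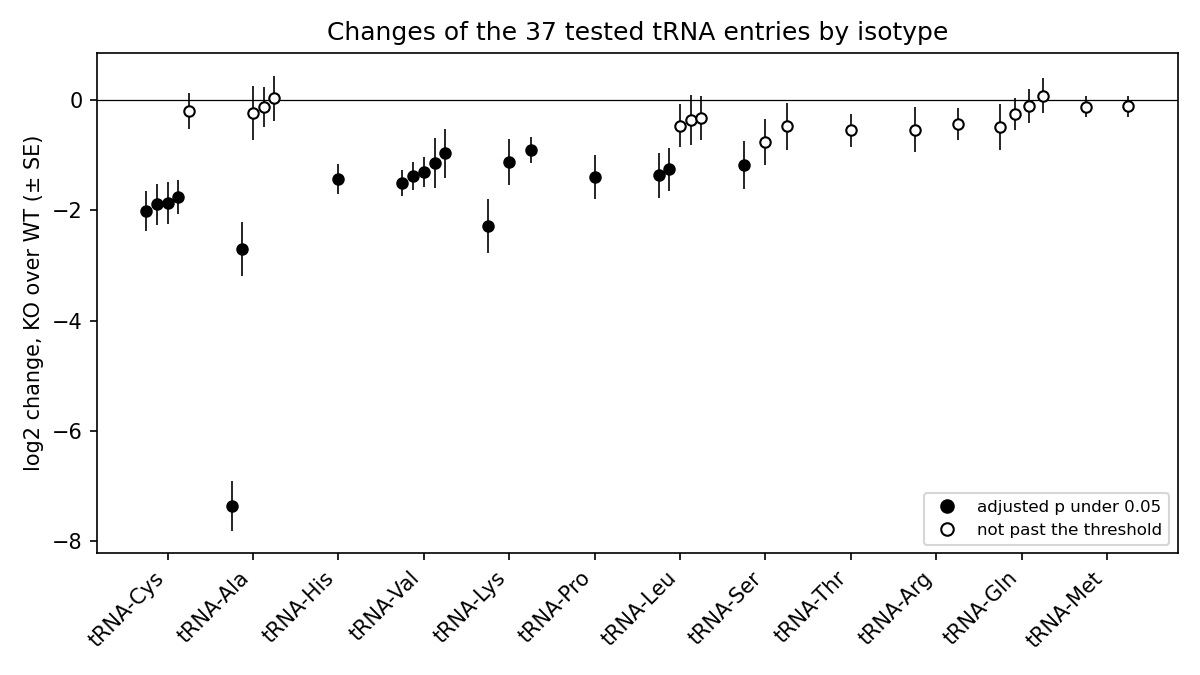
Log2 change (KO over WT, scaled to miRNA totals, bars ± SE of the edgeR fit) of the 37 tested tRNA entries, grouped by isotype, with filled points for an adjusted p under 0.05. tRNA-Ala-CGC chr4.trna622 lies apart at -7.36, and within tRNA-Cys 1 entry at -0.20 stands beside 4 entries between -2.01 and -1.76. Under whole-table TMM factors 26 of the 37 were higher and 1 was lower, where 33.3% of all RNAs were higher and 40.8% lower.

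Among the 37 tested entries the strongest change was that of tRNA-Ala-CGC chr4.trna622 (gene n-TAcgc3), at chr4:132125259-132125330 on the plus strand, within an intron of Oprd1, which lies on the opposite strand. It had 1, 0 and 1 counts in KO, against 110, 113 and 166 in WT. It passed the filter on low counts through the WT libraries alone, so only a call lower in KO was open to it. Its p-value is thus no separate support for its direction, and KO counts this low leave the size of its change uncertain. The summed level was 195-fold lower in KO (95% exact interval from 53.7 to 1620, covering counting error only), and the log2 change was -7.36 ± 0.45 (edgeR adjusted p = 6.75e-19). It was the most counted tRNA-Ala entry, with 33.5% of the tRNA-Ala counts, and it also stayed lower with TMM factors of the whole table, at -5.47. Its tRNA prediction score in the deposited name was 59.08, within a range of 21.1 to 92.09 over the members. Another entry of the same anticodon, tRNA-Ala-CGC chr2.trna263 in an intron of 4930555B11Rik on the same strand, had 5, 2 and 2 counts in KO, against 18, 13 and 30 in WT, a log2 change of -2.70 ± 0.48 (edgeR adjusted p = 2.39e-06). This entry too passed the filter through the WT libraries alone, so the same limit holds for its p-value. The entry tRNA-Ala-CGC chrX.trna369 had 3, 5 and 14 counts in KO, against 10, 3 and 13 in WT, and did not pass (log2 change -0.24 ± 0.49, adjusted p = 0.646). The other tRNA-Ala-CGC entries were too scarce for a test and were named after their values were seen. Of these, chrX.trna636 had 9, 7 and 8 counts in KO, against 2, 6 and 6 in WT, higher per miRNA count without overlap. In KO against WT, chr13.trna70 had 1 against 14 counts, chrX.trna364 1 against 8 and chrX.trna373 6 against 5. Without chr4.trna622, tRNA-Ala-CGC averaged 1.03 ± 0.158 per 10000 miRNA counts in KO, against 2.03 ± 0.430 in WT (SD, n = 3 each), 1.97-fold lower in KO without overlap. The counts behind these means were 63 in KO and 128 in WT, of which chr2.trna263 gave 9 and 61. Levels without both entries were not formed, so this fold does not describe the remaining entries alone. tRNA-Ala-AGC chr10.trna1130, in an intron of Hkdc1, and tRNA-Ala-TGC chrX.trna366 had log2 changes of 0.03 ± 0.41 and -0.13 ± 0.36, with overlap in both.

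Entries of tRNA-Cys-GCA also had unlike changes, although the difference between entries was not tested. tRNA-Cys-GCA chr6.trna182, its most counted entry, at chr6:48356851-48356922 on the plus strand, had 18, 15 and 35 counts in KO, against 59, 45 and 132 in WT, a log2 change of -1.76 ± 0.30 (edgeR adjusted p = 1.26e-06). tRNA-Cys-GCA chr11.trna1442 and chr11.trna1432 changed by -2.01 ± 0.37 and -1.89 ± 0.37, and chr17.trna457, named after its values were seen, by -1.87 ± 0.38. None of these 4 overlapped. tRNA-Cys-GCA chr6.trna170, at chr6:48205068-48205139 on the plus strand, had 23, 22 and 26 counts in KO, against 14, 29 and 41 in WT, with overlap and a log2 change of -0.20 ± 0.33 (adjusted p = 0.572). Without it the rest of tRNA-Cys was at 2.64, 1.98 and 3.16 per 10000 miRNA counts in KO and at 7.06, 7.04 and 13.7 in WT, 3.57-fold lower in KO. Of the 25 tRNA-Cys entries, 21 lie on chromosome 6.

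The tRNA-Met counts came almost wholly from tRNA-Met-CAT chr13.trna108 and chr13.trna82, which held 99.0% of them. Their counts were 384, 279 and 717 for chr13.trna108 in KO, against 340, 551 and 584 in WT, and 378, 272 and 729 for chr13.trna82 in KO, against 360, 529 and 572 in WT. In every library they were within 1.06 times of each other, and how reads that match both were divided is not known. Their positions are chr13:23500080-23500151 and chr13:21907111-21907182, both on the plus strand and between genes. The deposited names carry no label for initiator or elongator tRNA-Met, but they do give lengths. Both entries are 72 nt long, as is chr15.trna876, while chr15.trna913 and chr13.trna1011, the other tRNA-Met entries with counts, are 73 nt long. Which form was counted was not tested. The remaining tRNA-Met entries had 24 counts in the KO libraries together and 31 in the WT libraries.

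Of the most counted entries of the other isotypes, tRNA-Val-CAC chr11.trna204 had 72, 31 and 153 counts in KO, against 129, 126 and 373 in WT, a log2 change of -1.30 ± 0.27 (edgeR adjusted p = 2.77e-05). tRNA-Val-TAC chr19.trna109 and tRNA-Val-AAC chr11.trna208 changed by -1.50 ± 0.24 and -1.38 ± 0.26, and none of these 3 overlapped per miRNA count. tRNA-Lys-CTT chr12.trna796, with 70.4% of the tRNA-Lys counts, changed by -0.91 ± 0.23 (adjusted p = 0.000372) and tRNA-His-GTG chr2.trna1431 by -1.43 ± 0.27. A second tRNA-Lys-CTT entry, chr11.trna2023 in an intron of Trim7 and named after its values were seen, had 2, 3 and 19 counts in KO, against 21, 13 and 88 in WT, a log2 change of -2.28 ± 0.49. tRNA-Pro-TGG chr7.trna443 had 5, 10 and 22 counts in KO, against 13, 42 and 44 in WT (log2 change -1.39 ± 0.40, adjusted p = 0.00154). tRNA-Thr-TGT chr11.trna206 (-0.55 ± 0.30), tRNA-Arg-CCG chr11.trna945 (-0.44 ± 0.28) and tRNA-Ser-TGA chr13.trna112 (-0.48 ± 0.43) did not pass, with adjusted p of 0.0808, 0.146 and 0.295. The tRNA-Gln-CTG entries chr11.trna1817, chr3.trna297 and chr13.trna87 had log2 changes of -0.26, 0.08 and -0.11 and did not pass.

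A pair of neighbouring genes on chromosome 11, a pairing that was not planned, had unlike values, a difference that was not tested. tRNA-Leu-TAG chr11.trna401, at chr11:69124241-69124322 on the plus strand, had 8, 5 and 27 counts in KO, against 17, 26 and 53 in WT, a log2 change of -1.26 ± 0.39 (edgeR adjusted p = 0.00323) that was -2.12 without KO replicate 3. The tRNA-Gln-CTG chr11.trna1817 gene beside it, at chr11:69124607-69124678 on the minus strand, had 34, 25 and 92 counts in KO, against 33, 50 and 97 in WT, and a log2 change of -0.26 ± 0.30 (adjusted p = 0.416). Another tested member nearby, tRNA-Lys-TTT chr11.trna1816 at chr11:69125176-69125248, had 12, 7 and 17 counts in KO, against 18, 8 and 55 in WT. Its log2 change was -1.13 ± 0.42 (edgeR adjusted p = 0.0132). Chromosome 13 held 63 of the members and 46.2% of their counts, and chromosome 11 held 37 members and 23.3% of the counts. The X chromosome held 14 members and 2.48% of the counts. In the annotation 52 members overlap a gene other than their own tRNA gene and 173 do not, and of the 37 tested members 7 overlap such a gene and 30 do not. Over the 37 tested entries the tRNA prediction score and the log2 change had a Spearman rho of -0.30 and a Pearson r of 0.04, as a description over entries that share libraries and sequence. The 8 tested entries of tRNA-Leu and tRNA-Ser had a median log2 change of -0.62 and the other 29 entries of -0.97. Across the 45 anticodons the number of genes and the summed counts had a Spearman rho of 0.47.

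The remaining 7 isotypes were too scarce for a test. tRNA-Asn had 1, 0 and 2 counts in KO, against 4, 5 and 17 in WT, and its levels did not overlap (exact permutation p = 0.1, n = 3 each). Nearly all of them, 96.6%, came from tRNA-Asn-GTT chr10.trna390, which overlaps an exon of Ndufs7 on the same strand, so fragments of that messenger RNA and of the tRNA cannot be told apart. tRNA-SeC, which delivers selenocysteine, had 1, 0 and 5 counts in KO, against 7, 2 and 17 in WT, all from tRNA-SeC-TCA chr7.trna88. tRNA-Ile had 13 counts in KO, against 19 in WT, tRNA-Trp 11 in KO, against 15 in WT, tRNA-Tyr 6 in KO, against 14 in WT, and tRNA-Phe 2 in each genotype, each with overlapping libraries. The most counted tRNA-Ile entry, tRNA-Ile-AAT chr13.trna100, had 5 counts in KO, against 8 in WT, and held 40.6% of the tRNA-Ile counts. tRNA-Trp-CCA chr11.trna1849 had 2 counts in KO, against 4 in WT, and tRNA-Trp-CCA chr13.trna107 had as many over both genotypes, with 4 in KO, against 2 in WT. tRNA-Tyr-GTA chr14.trna192 had 2 counts in KO, against 4 in WT, and tRNA-Phe-GAA chr10.trna971 had 1 in KO, against 2 in WT, so no direction was read from any of them. tRNA-Sup-TTA chr13.trna79, the single suppressor tRNA prediction, had no count in any library. It was 1 of 4 anticodons at 0 in all 6 libraries, a result that allows a share of up to 0.00520% of the 57699 cytosolic tRNA counts by counting error alone.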

How the data were processed

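Small RNA libraries of round spermatids were analysed from 3 KO and 3 WT samples. A mirVana kit gave the small RNA and an Ion Total RNA-Seq kit the libraries, per the labels' protocols. The authors deposited raw counts (whole reads for each reference sequence), made with featureCounts v1.5.0-p2 per the file headers. The submitters' processing notes further name cutadapt, DESeq2 and build mm9. No source used here gives the aligner or how reads matching several tRNA copies were counted. All tRNA coordinates are those of the deposited names. Of the 249 cytosolic tRNA entries, 221 equal a RefSeq tRNA position of build GRCm38, so GRCm38 is the build given here. The indexed sequences are 20 nt longer than the named tRNAs.

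Counts of the members were summed per isotype and per anticodon. Each form of the table was tested whole with the quasi-likelihood test of edgeR 4.0.16 (R 4.3.3), with genotype as the term, miRNA totals as library sizes and low counts removed by filterByExpr (min.count 10, min.total.count 15). The SE is the log2 change divided by the square root of the F statistic. P-values were two-sided and adjusted over all tested RNAs by the Benjamini-Hochberg method at 0.05. The fits were tested on simulated data. Single ratios and levels were compared with exact permutation tests (scipy 1.17.1, Python 3.11.15). Alternatives were DESeq2 1.42.0, other scalings and filters, a replicate block and libraries left out. Shares of called RNAs over the whole table are given only for edgeR with miRNA totals, with whole-table TMM factors and with the replicate block. The text names every isotype, every tested anticodon, the most counted entry of each isotype, and the 8 entries with the smallest and the 8 with the largest adjusted p. Members and lists were chosen with earlier results of these data known. The authors' separate piRNA table was not used here.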

Additional observations from a re-analysis of the deposited data

How the results depend on the processing

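Scaling decided the direction. Under TMM factors of the whole table, library size alone and DESeq2 size factors, 0 isotypes, 1 anticodon and 1 entry were lower in KO, the sum over members had log2 changes of 1.38 (TMM) and 1.09 (library size), and 0 isotypes were lower without overlap (TMM and library size). The isotypes then had, in this order of the 3 scalings, 0.56, 0.28 and 0.49 (tRNA-Ala), 1.57, 1.28 and 1.49985 (tRNA-Arg), 0.57, 0.29 and 0.51 (tRNA-Cys), 1.91, 1.62 and 1.85 (tRNA-Gln), 0.59, 0.31 and 0.53 (tRNA-His), 1.13, 0.84 and 1.06 (tRNA-Leu), 0.94, 0.65 and 0.87 (tRNA-Lys), 1.91, 1.62 and 1.84 (tRNA-Met), 1.09, 0.79 and 1.02 (tRNA-Pro), 1.32, 1.04 and 1.26 (tRNA-Ser), 1.37, 1.09 and 1.30 (tRNA-Thr), and 0.74, 0.45 and 0.67 (tRNA-Val). These scalings moved the median of all RNAs by 2.03, 1.75 and 1.96. Factors of all RNAs other than piRNAs gave 0.11 for tRNA-Gln, 0.12 for tRNA-Met and 9 anticodons, and miRNA TMM factors gave 0.012 for tRNA-Met.

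The count of entries was 8 with a minimum count of 30 and 31 without the filter, where fewer or more entries were tested. Without both replicate 3 libraries, 14 isotypes were lower without overlap, and tRNA-Cys chr6.trna170 had 0.068 and tRNA-Gln chr3.trna297 -0.48. Leaving out 1 library gave 6 to 12 isotypes, 10 to 18 anticodons, 14 to 22 entries, 8 to 14 isotypes without overlap, -0.97 to -0.47 for the sum and 2.53 to 2.73 for its ratio to tRNA-Glu, tRNA-Asp and tRNA-Gly. The log2 ranges that crossed 0, none of them a call in the full set, were -0.66 to 0.11 (tRNA-Gln), -0.43 to 0.043 (tRNA-Met and its CAT anticodon), -0.59 to 0.14 (tRNA-Gln-CTG), -0.54 to 0.11 (tRNA-Ser-TGA) and -0.84 to 0.074 (tRNA-Arg-CCG). For entries they were -0.95 to 0.20 (tRNA-Ala chrX.trna369), -0.46 to 0.13 (chrX.trna366), -0.48 to 0.28 (chr10.trna1130), -0.85 to 0.11 (tRNA-Gln chr11.trna1817), -0.38 to 0.15 (chr13.trna87), -0.63 to 0.36 (chr3.trna297), -0.42 to 0.044 (tRNA-Met chr13.trna108), -0.44 to 0.055 (chr13.trna82), -0.90 to 0.033 (tRNA-Arg chr11.trna945) and -0.45 to 0.011 (tRNA-Cys chr6.trna170). The cause of these differences was not tested.

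Over all 25992 tested RNAs, of which 25421 were piRNAs, same-numbered KO and WT libraries had correlations of 0.03, 0.10 and 0.14 in their deviations. The numbers were thus not taken as pairs, although each library correlated best with its own number. Pairing over the tRNAs alone was not tested. With the replicate block 10 isotypes, 15 anticodons and 19 entries were lower, tRNA-Arg being added (adjusted p = 0.0178). Most members had few counts, and 159 of the 225 entries had under 20 in all libraries together.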
